A study of Mus musculus with 19 samples.

Results

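The D-type cyclins Ccnd1, Ccnd2 and Ccnd3 and their catalytic partners Cdk4 and Cdk6 were followed in mouse cerebellum after loss of Gnas. They were taken by symbol from the deposited expression tables, and all 5 genes were found among the 22193 listed. D-type cyclins are made in response to growth signals and bind Cdk4 or Cdk6. The active pair phosphorylates the retinoblastoma protein, which releases E2F factors that switch on genes for DNA synthesis, and INK4 proteins hold the kinases inactive. In the developing mouse cerebellum, Sonic hedgehog keeps granule neuron progenitors dividing, and Ccnd1, Ccnd2 and Mycn are among the genes it induces. Mature granule neurons have left the cell cycle.

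The groups of C57BL/6 mice were profiled at postnatal day 60. Olig1-Gnas mice (n = 8) carried a conditional knockout of Gsa, the G-protein subunit encoded by Gnas, driven by Olig1Cre, whose driver gene is active in the oligodendrocyte lineage. hGFAP-Gnas mice (n = 8) carried the same kind of knockout driven by hGFAPCre, which uses the human GFAP promoter and is active in neural progenitors that give rise to granule neurons and glia. Ctrl mice (n = 3) were wild type, and the labels name neither a floxed allele nor a Cre in them. The study's title concerns medulloblastoma, a tumor of the cerebellum, driven by Sonic hedgehog. RNA came from whole cerebellum, so recombined and other cells were read together, and no label says how much of a sample was tumor. Levels are FPKM, fragments mapped to a gene scaled by its transcript length and by the size of the library, which sets genes of different length on a common scale.

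Several features of the libraries touch the results. Gnas itself was listed at 0 in 3 Olig1-Gnas libraries and at 24.0 to 121 FPKM in the other 5, and at 0 in 7 hGFAP-Gnas libraries and 40.9 FPKM in the other. In Ctrl it was listed at 651, 798 and 0 FPKM in the table of Olig1-Gnas and at 0, 798 and 0 FPKM in that of hGFAP-Gnas, so a listed 0 can be a failed estimate and the gene gave no firm check of the labels. Depth inferred from low values was 0.841 to 1.06 of that of Ctrl 2 in the deeper libraries (Olig1-Gnas 5 to 8, hGFAP-Gnas 1 to 4, Ctrl 1 and 2) and 0.270 to 0.432 in the shallower ones. Y-linked signal was present in 2 of 8 Olig1-Gnas, 7 of 8 hGFAP-Gnas and 2 of 3 Ctrl libraries. Summed markers of mature granule neurons ran from 165 to 1138 FPKM in Olig1-Gnas, from 312 to 3260 FPKM in hGFAP-Gnas and from 3551 to 4413 FPKM in Ctrl. The library hGFAP-Gnas 1 stood apart: it held that highest sum, 3260 FPKM, and its summed markers of dividing cells were 12.1 FPKM, against 234 to 627 FPKM in the other hGFAP-Gnas libraries and 1.18 to 1.91 FPKM in Ctrl.

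Ccnd1, Ccnd2, Cdk4 and Cdk6 were higher in each knockout than in Ctrl, and Ccnd3 did not pass the test in either. In Olig1-Gnas against Ctrl, 4 of the 5 genes were called higher at an adjusted p under 0.05 by limma, where 36.2% of all 14183 genes tested were called higher and 59.8% were called in either direction. In hGFAP-Gnas against Ctrl the same 4 genes were called higher, where 26.1% of 14305 genes tested were called higher and 38.9% in either direction. All 5 genes passed the filter on low values in every comparison, and none was called between the knockouts, where 59 of 14386 genes, 0.41%, were called. In bulk tissue, fewer cells of a type and less RNA per cell cannot be told apart. The comparisons with Ctrl share the Ctrl mice, so their values are set side by side without a test of likeness.

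**Figure D1:**
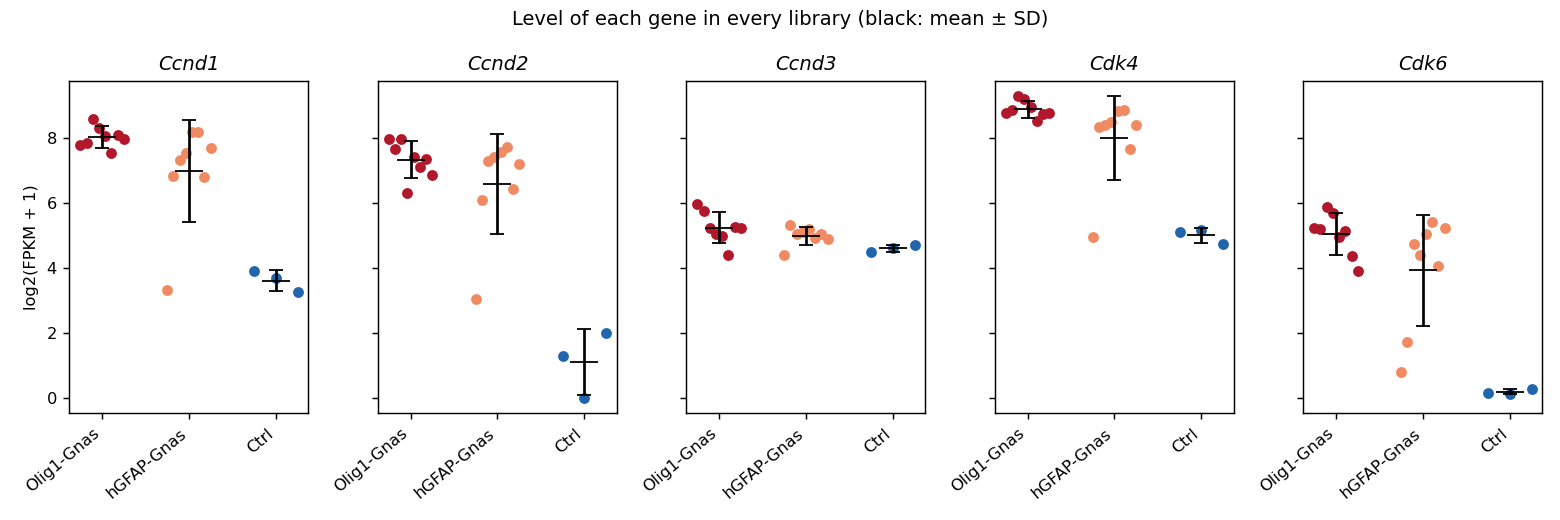
Level of each gene on the log2(FPKM + 1) scale in every library of Olig1-Gnas, hGFAP-Gnas and Ctrl; each point is 1 library and black bars are the mean ± SD. Ccnd1, Ccnd2, Cdk4 and Cdk6 stand above Ctrl in all 8 Olig1-Gnas libraries, while hGFAP-Gnas 1 lies at or near Ctrl and Ccnd3 stays between 20.1 and 62.4 FPKM in all 19 libraries.

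Ccnd1, the D-type cyclin most often tied to progenitor growth, had the highest mean level of the 3 cyclins in each knockout. Its level ran from 187 FPKM through a median of 259.5 to 388 FPKM in the 8 Olig1-Gnas libraries, and from 9.09 FPKM through 172 to 289.8 FPKM in the 8 hGFAP-Gnas libraries. In Ctrl it was 14.0, 11.9 and 8.59 FPKM. Every Olig1-Gnas library lay far above every Ctrl library, whereas hGFAP-Gnas 1 lay within the Ctrl range and the other 7 hGFAP-Gnas libraries, at 110.2 FPKM or more, lay above it. Mean levels were 267 ± 62.9 FPKM in Olig1-Gnas and 11.5 ± 2.73 FPKM in Ctrl (SD, n = 8 and 3), a ratio of 23.3, and the log2 fold was 4.42 ± 0.21 (SE; limma adjusted p = 1.00e-08). For hGFAP-Gnas the mean was 170.5 ± 94.8 FPKM (SD, n = 8), 14.8 times that of Ctrl, and the log2 fold was 3.37 ± 0.84 (SE; limma adjusted p = 0.0143). Its locus in the tables is chromosome 7, 152115835 to 152125830 of the mm9 assembly, and no other listed gene overlaps it.

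Ccnd2, which in mice also serves dividing neural progenitors, was close to absent from Ctrl cerebellum. It ran from 78.5 FPKM through a median of 167 to 252 FPKM in Olig1-Gnas, and from 7.22 through 151 to 210.4 FPKM in hGFAP-Gnas. In Ctrl it was 1.46, 0 and 3.03 FPKM. Every library of either knockout lay above every Ctrl library, hGFAP-Gnas 1 by the least. The log2 fold was 6.23 ± 0.42 in Olig1-Gnas (SE; limma adjusted p = 2.22e-07), the 16th largest of 14183, and 5.50 ± 0.87 in hGFAP-Gnas (SE; limma adjusted p = 0.00608), the 13th largest of 14305. With the value of 0 in Ctrl 2 taken as missing, the log2 folds were 5.68 and 4.94 and both calls held. The tables place Ccnd2 at chromosome 6, 127075726 to 127162437 (mm9), and give 9330179D12Rik the same span. The log2 fold of that gene was 2.09 in Olig1-Gnas and 1.74 in hGFAP-Gnas, both called, and how reads were divided between the overlapping genes is not given in the sources used here.

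Ccnd3, the D-type cyclin best known for its role in blood and immune cells, differed least between the groups among the 3. It ran from 20.3 FPKM through a median of 36.7 to 62.4 FPKM in Olig1-Gnas and from 20.1 through 32.3 to 38.8 FPKM in hGFAP-Gnas, with 21.4, 23.8 and 25.1 FPKM in Ctrl. In each knockout 7 libraries lay above all Ctrl libraries and 1 lay below them, Olig1-Gnas 6 and hGFAP-Gnas 1. The log2 fold was 0.64 ± 0.26 in Olig1-Gnas (SE; 95% interval 0.06 to 1.21; limma adjusted p = 0.0537) and 0.39 ± 0.17 in hGFAP-Gnas (SE; 95% interval 0.01 to 0.78; limma adjusted p = 0.0892). Without Olig1-Gnas 6 the fold was 0.76 and was called (adjusted p = 0.00775), and without hGFAP-Gnas 1 it was 0.48 and was called (adjusted p = 0.00556). Calls over all genes rose as well, from 8485 of 14183 to 9546 of 14135 without Olig1-Gnas 6. Without hGFAP-Gnas 1 they rose from 5570 of 14305 to 8164 of 14214. The median fold of all genes tested was 0.22 in Olig1-Gnas and 0.19 in hGFAP-Gnas, and quantile normalization took these to 0.06 and -0.01 and the folds of Ccnd3 to 0.47 and 0.24. Bysl has the same span as Ccnd3 in the tables, chromosome 17, 47641999 to 47748441 (mm9), and was called higher in Olig1-Gnas with a log2 fold of 1.07, so reads of the pair may be split uncertainly.

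The highest Ccnd3 levels of the series, 62.4 and 53.5 FPKM, were in Olig1-Gnas 1 and 2. The same libraries held the highest summed levels of 10 markers of microglia and macrophages, 1784 and 1501 FPKM, against 489 to 703 FPKM in the other Olig1-Gnas libraries, 125 to 1085 FPKM in hGFAP-Gnas and 66.2 to 98.2 FPKM in Ctrl. Of those 10 markers, 6 were called higher in Olig1-Gnas and 8 in hGFAP-Gnas, where 36.2% and 26.1% of all genes tested were called higher. Summed markers of lymphocytes, 8 genes of which 3 passed the filter and 2 were called higher in each knockout, ran from 6.70 to 60.7 FPKM in Olig1-Gnas, 1.596 to 36.7 FPKM in hGFAP-Gnas and 0.608 to 1.78 FPKM in Ctrl, with Cd3g at 0 in all Ctrl libraries. The part of these cells in the level of Ccnd3 was not tested.

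Cdk4, the kinase partner found in most cell types, had the highest level of the 5 genes in every group. Its promoter is shown because it holds more E-boxes, the letters CACGTG bound by MYC-family factors, than those of Cdk6 and Ccnd3. The promoter source held only these 3 genes, so Ccnd1 and Ccnd2 were not searched. Mycn and Myc were called higher in the same comparisons, and a link between them and the E-boxes was not tested. The 250 bases before each RefSeq start (GRCm38.p6, not the mm9 build of the tables) lie on the plus strand at chr10:127063285-127063534 for Cdk4 and chr5:3343643-3343892 for Cdk6, with capitals marking E-boxes.
Cdk4 promoter: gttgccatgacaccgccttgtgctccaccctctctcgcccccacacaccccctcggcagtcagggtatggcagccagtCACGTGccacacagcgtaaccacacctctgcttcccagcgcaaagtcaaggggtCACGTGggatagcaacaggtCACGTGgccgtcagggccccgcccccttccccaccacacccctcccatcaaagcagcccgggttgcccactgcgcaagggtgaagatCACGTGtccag
Cdk6 promoter: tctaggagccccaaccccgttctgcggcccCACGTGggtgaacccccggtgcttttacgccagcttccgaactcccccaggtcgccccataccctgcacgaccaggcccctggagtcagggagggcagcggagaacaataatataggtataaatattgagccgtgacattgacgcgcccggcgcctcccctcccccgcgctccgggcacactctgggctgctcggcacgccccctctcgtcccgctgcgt
The 250 bases before the Ccnd3 starts, at chr17:47504801-47505050 and chr17:47593217-47593466, hold none.
Ccnd3 promoter, start 1: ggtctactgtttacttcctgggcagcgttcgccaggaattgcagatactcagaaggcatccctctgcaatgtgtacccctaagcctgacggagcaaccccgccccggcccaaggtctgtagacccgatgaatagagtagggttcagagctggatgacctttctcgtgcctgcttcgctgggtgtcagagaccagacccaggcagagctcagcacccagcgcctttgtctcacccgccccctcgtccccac
Ccnd3 promoter, start 2: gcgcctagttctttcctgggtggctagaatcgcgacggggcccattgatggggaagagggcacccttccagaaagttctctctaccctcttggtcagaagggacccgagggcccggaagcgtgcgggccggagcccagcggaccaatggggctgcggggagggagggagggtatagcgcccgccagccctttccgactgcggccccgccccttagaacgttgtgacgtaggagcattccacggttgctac
The palindrome CACGTG occurs 4 times in the Cdk4 window, with first bases 172, 118, 98 and 11 before the start, and 1 time in the Cdk6 window, at 220 before the start. Of 32851 mouse windows of the same length, 6.02% hold at least 1 such match and 7 hold at least 4. The GC box GGGCGG, read on both strands, occurs 1 time for Cdk4, 0 times for Cdk6, and 2 and 1 times at the Ccnd3 starts, and 32.7% of windows hold it. The cyclic AMP response element TGACGTCA and the GLI site TGGGTGGTC, read on both strands, are in none of the 4 windows, and 1.55% and 0.225% of all windows hold them. None of these motifs overlap each other here, and a match in letters does not show binding.

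Cdk4 ran from 367 FPKM through a median of 452 to 627 FPKM in Olig1-Gnas, and from 30.3 through 339.7 to 465 FPKM in hGFAP-Gnas. Ctrl libraries had 33.5, 35.1 and 25.9 FPKM. All Olig1-Gnas libraries lay far above the Ctrl range, while hGFAP-Gnas 1 lay inside the Ctrl range and the next lowest, hGFAP-Gnas 7, had 202 FPKM. The means were 481 ± 88.4 FPKM in Olig1-Gnas and 31.5 ± 4.90 FPKM in Ctrl (SD, n = 8 and 3), a ratio of 15.3, with a log2 fold of 3.88 ± 0.17 (SE; limma adjusted p = 5.69e-09). The mean of 316 ± 142 FPKM in hGFAP-Gnas (SD, n = 8) was 10.02 times that of Ctrl, with a log2 fold of 2.99 ± 0.69 (SE; limma adjusted p = 0.0116). Cdk4 lies on chromosome 10 from 126500658 to 126504338 (mm9), and its neighbour Tspan31 starts at 126504345 and rose by 0.85 on the log2 scale in Olig1-Gnas.

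Cdk6, the kinase whose use is more restricted to particular lineages, ran from 14.2 FPKM through a median of 35.1 to 58.1 FPKM in Olig1-Gnas and from 0.732 through 23.1 to 41.8 FPKM in hGFAP-Gnas. In Ctrl it was near 0, at 0.115, 0.1004 and 0.223 FPKM. Every knockout library lay above every Ctrl library, but hGFAP-Gnas 1 and 2, at 0.732 and 2.34 FPKM, lay far below the other 6, which had 15.8 FPKM or more. Mean levels were 35.0 ± 14.5 FPKM in Olig1-Gnas and 0.146 ± 0.0670 FPKM in Ctrl (SD, n = 8 and 3), and the log2 fold was 4.86 ± 0.35 (SE; limma adjusted p = 3.29e-07). In hGFAP-Gnas the mean was 21.9 ± 15.1 FPKM (SD, n = 8) and the log2 fold was 3.74 ± 0.92 (SE; limma adjusted p = 0.0137). The log2 folds are of FPKM + 1, so for Cdk6 and Ccnd2 they understate the difference from very low Ctrl levels: the ratio of mean Cdk6 levels was 239 in Olig1-Gnas and 149.7 in hGFAP-Gnas. Cdk6 lies on chromosome 5 from 3344311 to 3522225 (mm9).

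**Figure D2:**
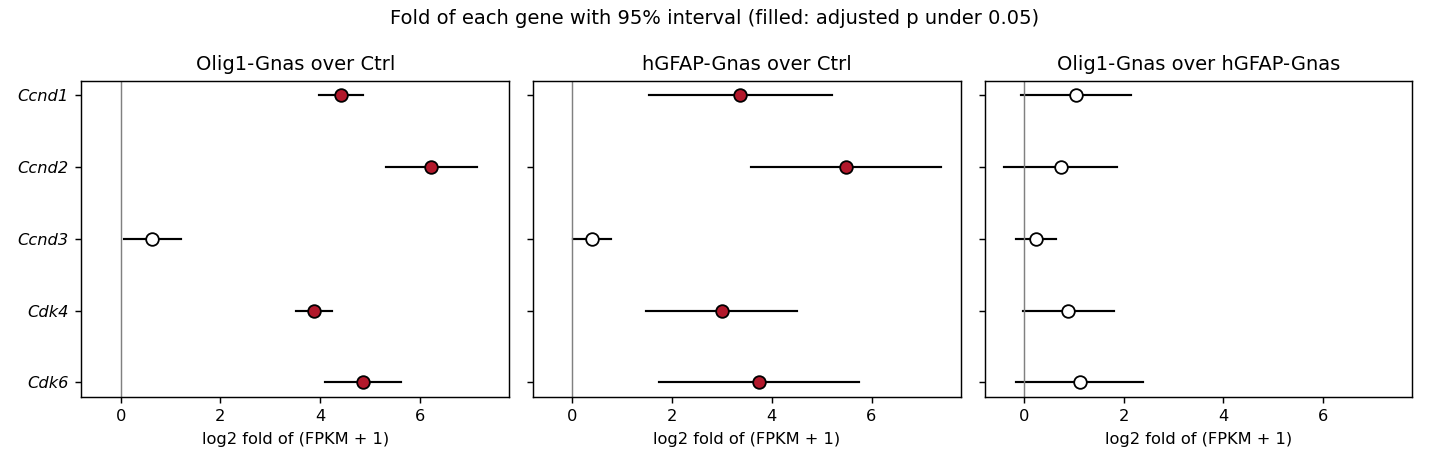
Log2 fold of FPKM + 1 with its 95% limma interval for each gene, for Olig1-Gnas over Ctrl, hGFAP-Gnas over Ctrl and Olig1-Gnas over hGFAP-Gnas; filled points have an adjusted p under 0.05. Ccnd1, Ccnd2, Cdk4 and Cdk6 are filled against Ctrl in both knockouts with wider intervals in hGFAP-Gnas, and no point is filled between the knockouts.

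The groups did not overlap, all knockout libraries lying above all Ctrl libraries, for Ccnd1, Ccnd2, Cdk4 and Cdk6 in Olig1-Gnas, where 32.2% of all genes tested did so. In hGFAP-Gnas this held for Ccnd2 and Cdk6, against 15.2% of all genes tested. For a single gene, the two-sided exact permutation test over the 165 arrangements of 8 against 3 libraries gave p = 0.0121, the smallest it allows, for Ccnd1, Ccnd2, Cdk4 and Cdk6 in Olig1-Gnas and for Ccnd2 and Cdk6 in hGFAP-Gnas, and 0.0364 for Ccnd1 and Cdk4 in hGFAP-Gnas. For Ccnd3 the exact permutation p was 0.0485 in Olig1-Gnas and 0.0727 in hGFAP-Gnas.

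The 4 calls in hGFAP-Gnas changed with single libraries. Without hGFAP-Gnas 1 the log2 folds were 3.89 ± 0.32 for Ccnd1, 6.00 ± 0.45 for Ccnd2, 3.43 ± 0.24 for Cdk4 and 4.18 ± 0.67 for Cdk6 (SE; limma adjusted p = 4.41e-06, 3.68e-06, 1.57e-06 and 0.000580), and all 5 genes were called. In the deeper libraries none of the 5 was called (adjusted p = 0.259 to 0.280 for the 4), and without hGFAP-Gnas 1 among them, a choice made after seeing the data, all 5 were called. Leaving out Ctrl 1 or Ctrl 2 left Ccnd2 as the only call, with adjusted p = 0.0523 to 0.0587 for Ccnd1, Cdk4 and Cdk6, and leaving out Ctrl 3 ended the call of Ccnd1 (adjusted p = 0.0582). Calls over all genes moved in the same settings, so these changes are not particular to the 5 genes. They were 5570 of 14305 in the main fit and 8164 of 14214 without hGFAP-Gnas 1. In the deeper libraries they were 6 of 13872, and 5604 of 13650 without hGFAP-Gnas 1. Without Ctrl 1, Ctrl 2 and Ctrl 3 they were 1049 of 14250, 818 of 14239 and 1924 of 14208.

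Between the knockouts, the mean levels of all 5 genes were higher in Olig1-Gnas, but none passed the test. The log2 fold of Olig1-Gnas over hGFAP-Gnas was 1.05 ± 0.52 for Ccnd1 (SE; 95% interval -0.05 to 2.15; limma adjusted p = 0.229) and 0.89 ± 0.43 for Cdk4 (SE; 95% interval -0.02 to 1.79; limma adjusted p = 0.218). It was 0.73 ± 0.54 for Ccnd2 (95% interval -0.40 to 1.87), 1.12 ± 0.60 for Cdk6 (95% interval -0.15 to 2.39) and 0.25 ± 0.19 for Ccnd3 (95% interval -0.15 to 0.65), with limma adjusted p = 0.393, 0.254 and 0.417. These intervals leave room for a difference of more than 1 log2 unit in Ccnd1, Ccnd2, Cdk4 and Cdk6. By limma 0 of the 5 had an unadjusted p under 0.05, the lowest being 0.0538 for Cdk4. Taken singly and unadjusted, the exact permutation test over 12870 arrangements gave p = 0.00684 for Cdk4, 0.0236 for Ccnd1, 0.111 for Cdk6, 0.222 for Ccnd3 and 0.234 for Ccnd2. Without hGFAP-Gnas 1 the log2 folds were smaller, at 0.53 for Ccnd1, 0.46 for Cdk4, 0.23 for Ccnd2, 0.67 for Cdk6 and 0.16 for Ccnd3 (limma adjusted p = 0.237, 0.197, 0.688, 0.446 and 0.652). The knockouts stand in separate tables, in which Ctrl 2 and 3 have identical values. With Y-linked signal, which differed in frequency between the knockouts, as a term, the folds were 0.95 for Ccnd1 and 0.76 for Cdk4.

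The order of levels within a group differed between the knockouts and Ctrl. In Olig1-Gnas and in hGFAP-Gnas, mean FPKM ran downward in the order Cdk4, Ccnd1, Ccnd2, Ccnd3 and Cdk6, and in Ctrl in the order Cdk4, Ccnd3, Ccnd1, Ccnd2 and Cdk6. Ranges across libraries of genes next to each other in this order overlapped in each knockout, other than Ccnd2 and Ccnd3 in Olig1-Gnas. In hGFAP-Gnas the overlap of Ccnd2 with Ccnd3 came from hGFAP-Gnas 1 alone: in the other 7 libraries Ccnd2 was at least 67.9 FPKM and Ccnd3 at most 38.8 FPKM. In Ctrl only Ccnd2 and Cdk6 overlapped, through the 0 in Ctrl 2. Within single libraries, Cdk4 was at least 1.56 times Ccnd1 throughout Olig1-Gnas and at least 1.59 times throughout hGFAP-Gnas. Ccnd2 exceeded Ccnd1 in Olig1-Gnas 1 alone, at 1.13 times, and was below it in every other knockout library. Cdk6 exceeded Ccnd3 in Olig1-Gnas 3, 4 and 6 and in hGFAP-Gnas 6 and 8. Among all genes by mean FPKM, Cdk4 stood at percentile 99.3 in Olig1-Gnas, 99.1 in hGFAP-Gnas and 85.5 in Ctrl, and Cdk6 at 85.1, 76.2 and 30.1.

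The make-up of the D-type cyclin transcripts differed as well. Ccnd3 made up 8.14 ± 2.32% of the summed FPKM of the 3 cyclins in Olig1-Gnas (SD, n = 8), 15.6 ± 16.5% in hGFAP-Gnas (SD, n = 8) and 64.3 ± 5.54% in Ctrl (SD, n = 3). Its share was at most 11.7% in Olig1-Gnas. It was 55.3% in hGFAP-Gnas 1 and at most 17.6% in the other hGFAP-Gnas libraries. In Ctrl it was at least 58.0%, so no knockout library reached the Ctrl range. Ccnd1 made up 56.5 ± 9.77%, 47.9 ± 9.99% and 31.6 ± 7.46% in Olig1-Gnas, hGFAP-Gnas and Ctrl, and Ccnd2 made up 35.3 ± 8.75% and 36.5 ± 7.98% in Olig1-Gnas and hGFAP-Gnas and at most 8.27% in any Ctrl library. Olig1-Gnas 4 had the largest share of Ccnd1, 74.3%, and the smallest of Ccnd2 in the knockouts, 18.2%. These shares are given as descriptions with no test.

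**Figure D3:**
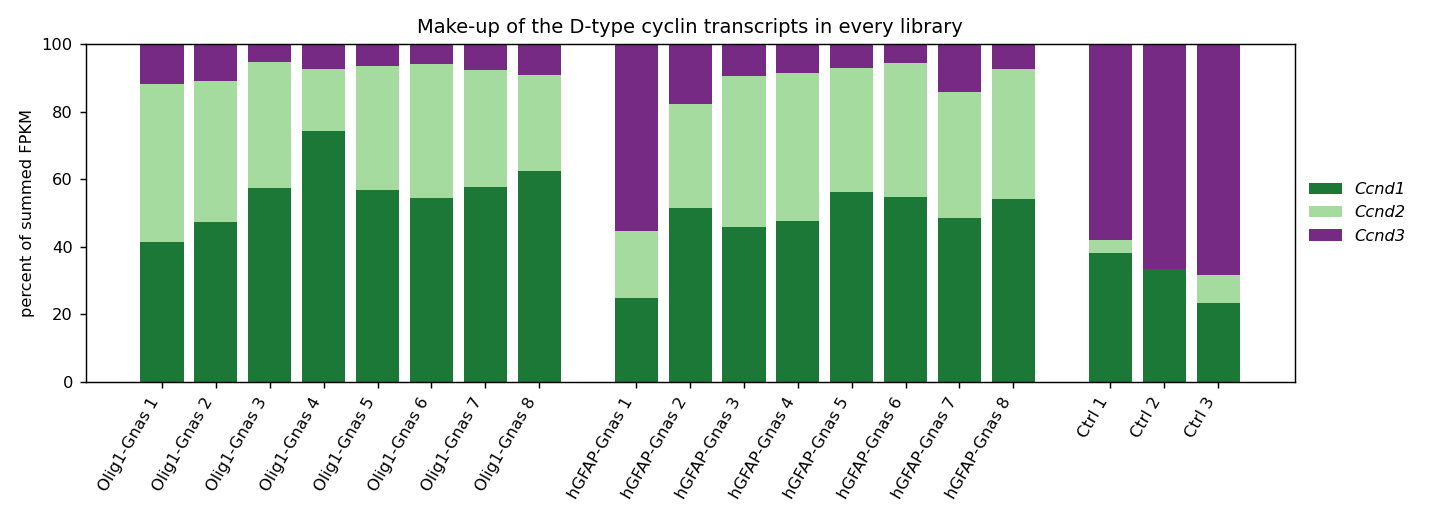
Share of each D-type cyclin in the summed FPKM of Ccnd1, Ccnd2 and Ccnd3, in percent, with 1 bar for each library of Olig1-Gnas, hGFAP-Gnas and Ctrl. Ccnd3 is the smallest share in Olig1-Gnas, at most 11.7%, and the largest in Ctrl, at least 58.0%, and hGFAP-Gnas 1, at 55.3%, stands next to Ctrl.

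Cdk4 supplied most of the kinase transcript in every library. It made up 93.4 ± 1.997% of Cdk4 plus Cdk6 in Olig1-Gnas, 94.1 ± 3.01% in hGFAP-Gnas and 99.5 ± 0.312% in Ctrl (SD, n = 8, 8 and 3). The summed D-type cyclins stood at 0.668 to 1.12 times the summed kinases in Olig1-Gnas, 0.668 to 1.18 times in hGFAP-Gnas and 1.01 to 1.40 times in Ctrl. The ranges of this ratio overlapped between groups, whereas the cyclins summed to 477 FPKM in Olig1-Gnas, 331 FPKM in hGFAP-Gnas and 36.4 FPKM in Ctrl on average.

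Levels of the genes were ranked against each other across the mice of each knockout. Spearman's rho over the 8 hGFAP-Gnas libraries was 0.93 for Ccnd1 with Cdk4, 0.93 for Ccnd1 with Cdk6, 0.98 for Ccnd2 with Cdk4, 0.90 for Ccnd1 with Ccnd2, 0.83 for Ccnd2 with Cdk6 and 0.81 for Cdk4 with Cdk6. Over the 8 Olig1-Gnas libraries these were 0.69, 0.31, 0.33, 0.02, 0.43 and 0.69, in the same order. Ccnd3 had rho between -0.12 and 0.43 with the others in Olig1-Gnas and between -0.10 and 0.31 in hGFAP-Gnas. These are descriptions over libraries that share depth classes and a tissue make-up that varied between mice.

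Genes most like each of the 5 genes were named by the lower of the rho values within Olig1-Gnas and within hGFAP-Gnas, each over 8 libraries. They were Phtf2, 2610101N10Rik and Cog1 for Ccnd1, at 0.976, 0.952 and 0.952. For Ccnd2 they were Clic4, Adamts6 and Mcm2, at 0.976, 0.905 and 0.881. For Ccnd3 they were Pigh, Gpx8 and Isg15, at 0.905, 0.881 and 0.881. For Cdk4 they were Acat3, Actg1 and Tars, and for Cdk6 they were Pds5a, Smchd1 and Gm13034, all at 0.952.

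Markers of several cell types differed between the groups along with these genes. Counts of called markers read against 36.2% called higher and 23.6% called lower over all genes in Olig1-Gnas, and 26.1% and 12.8% in hGFAP-Gnas. Of 10 markers of mature granule neurons, 9 were called lower in Olig1-Gnas and 7 in hGFAP-Gnas, and of 8 markers of granule neuron progenitors 6 were called higher in each. Progenitor markers summed to 827 to 1174 FPKM in Olig1-Gnas, 229 to 1188 FPKM in hGFAP-Gnas and 241 to 333 FPKM in Ctrl. Zic1 and Pax6 gave most of the Ctrl sum, averaging 242 and 43.2 FPKM there. They averaged 306 and 43.1 FPKM in Olig1-Gnas and 294 and 65.8 FPKM in hGFAP-Gnas. Each other progenitor marker averaged at most 6.56 FPKM in Ctrl, at least 45.4 FPKM in Olig1-Gnas and at least 18.8 FPKM in hGFAP-Gnas. All 7 markers of dividing cells were called higher in each knockout and summed to 431 to 885 FPKM in Olig1-Gnas, 12.1 to 627 FPKM in hGFAP-Gnas and 1.18 to 1.91 FPKM in Ctrl. Of 6 markers of oligodendrocyte precursors, 3 were called higher in Olig1-Gnas and 5 in hGFAP-Gnas, and they summed to 137 to 309 FPKM, 87.8 to 536 FPKM and 54.9 to 64.6 FPKM in Olig1-Gnas, hGFAP-Gnas and Ctrl. Markers of Purkinje cells were called lower for 8 of 8 in Olig1-Gnas and 7 of 8 in hGFAP-Gnas, and summed to 25.2 to 671 FPKM in Olig1-Gnas, 106 to 1819 FPKM in hGFAP-Gnas and 2329.8 to 3728 FPKM in Ctrl. All 5 markers of inhibitory interneurons were called lower in each knockout, and summed to 0.624 to 70.7 FPKM in Olig1-Gnas, 9.40 to 263 FPKM in hGFAP-Gnas and 323 to 354 FPKM in Ctrl. Of 8 markers of mature oligodendrocytes, 8 were called lower in Olig1-Gnas and 2 in hGFAP-Gnas, with sums of 20.9 to 282 FPKM, 140.0 to 865 FPKM and 829.2 to 1088 FPKM in Olig1-Gnas, hGFAP-Gnas and Ctrl. The sums of Purkinje cell, interneuron and mature granule neuron markers lay below Ctrl in each knockout, without overlap. Those of dividing cells, oligodendrocyte precursors, and microglia and macrophages lay above Ctrl in each knockout, also without overlap. In Olig1-Gnas alone, the sums of progenitors, lymphocytes, mature oligodendrocytes, and Bergmann glia and astrocytes did not overlap with Ctrl either. No share over all genes stands beside these sums. Of 8 markers of Bergmann glia and astrocytes, 2 were called higher and 4 lower in Olig1-Gnas, and 1 higher and 2 lower in hGFAP-Gnas, with sums of 351 to 1578 FPKM, 1144 to 2978 FPKM and 2192 to 3018 FPKM in Olig1-Gnas, hGFAP-Gnas and Ctrl. Of 8 markers of blood vessel cells, 2 were called lower in Olig1-Gnas, and their sums of 45.9 to 117 FPKM, 42.6 to 85.9 FPKM and 50.2 to 94.8 FPKM in Olig1-Gnas, hGFAP-Gnas and Ctrl overlapped. Choroid plexus markers varied widely within each group, with sums of 7.31 to 2356 FPKM in Olig1-Gnas, 4.94 to 892 FPKM in hGFAP-Gnas and 3.13 to 1234 FPKM in Ctrl. The part of cell make-up in the levels of Ccnd1, Ccnd2, Cdk4 and Cdk6 was not tested.

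**Figure D4:**
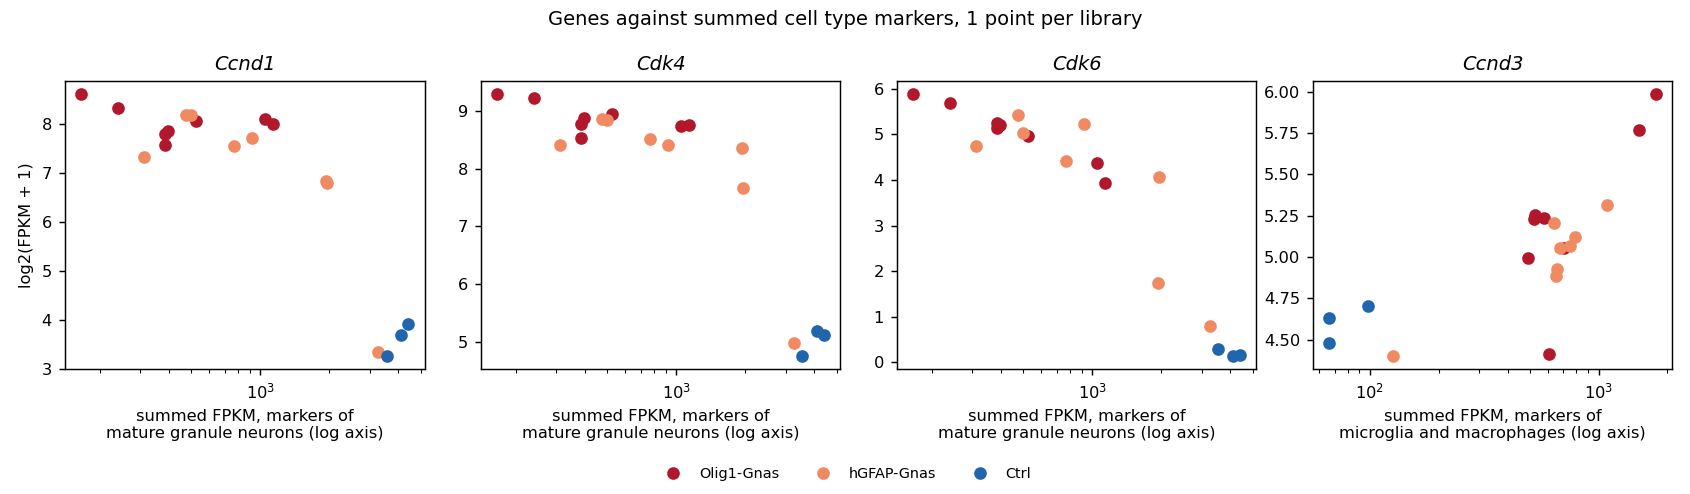
Levels of Ccnd1, Cdk4 and Cdk6 on the log2(FPKM + 1) scale against the summed FPKM of 10 markers of mature granule neurons, and of Ccnd3 against 10 markers of microglia and macrophages, on log horizontal axes, with 1 point per library. The library hGFAP-Gnas 1, at 3260 FPKM of granule neuron markers, lies beside Ctrl, and Olig1-Gnas 1 and 2, with 1784 and 1501 FPKM of microglial markers, have the highest Ccnd3.

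Upstream, 6 of 7 hedgehog and MYC genes rose in Olig1-Gnas and 5 of 7 in hGFAP-Gnas, against 36.2% and 26.1% of all genes tested. Their median log2 folds were 2.78 and 2.52, against 0.22 and 0.19 over all genes tested. Mycn, the MYC-family factor that hedgehog signalling induces, averaged 108 FPKM in Olig1-Gnas, 86.6 FPKM in hGFAP-Gnas and 1.89 FPKM in Ctrl, with log2 folds of 5.20 ± 0.26 and 4.48 ± 0.87 (SE). Myc rose by 3.66 and 3.10, and Gli1, the transcription factor used as a readout of hedgehog signalling, had log2 folds of 3.33 ± 0.18 and 2.55 ± 0.36 (SE). Gli3, the factor that mainly represses hedgehog targets, had log2 folds of -0.28 and -0.49 and was not called. Gli1 lies within 500 kb of Cdk4. Of the 26 tested neighbours of Cdk4 in that window, 7 rose and 5 fell in Olig1-Gnas, and 5 rose and 2 fell in hGFAP-Gnas. Over all genes tested, 36.2% were called higher and 23.6% lower in Olig1-Gnas, and 26.1% and 12.8% in hGFAP-Gnas. The counts therefore do not set the neighbours of Cdk4 apart from other genes.

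Among the inhibitors of the kinases, 6 of 7 rose in Olig1-Gnas and 4 of 7 in hGFAP-Gnas, with median log2 folds of 1.78 and 1.02. The shares called higher over all genes tested were 36.2% and 26.1%. Cdkn2c, the INK4 protein p18 that binds Cdk4 and Cdk6, averaged 50.1 FPKM in Olig1-Gnas, 31.0 FPKM in hGFAP-Gnas and 1.87 FPKM in Ctrl, with log2 folds of 4.12 ± 0.21 and 3.25 ± 0.58 (SE). Cdkn2a, whose locus encodes the INK4 protein p16 and the unrelated protein ARF, averaged 60.3 FPKM, 6.98 FPKM and 0.195 FPKM in Olig1-Gnas, hGFAP-Gnas and Ctrl, with log2 folds of 5.05 ± 0.79 and 2.43 ± 0.60 (SE), and the tables give 1 value for both products. Cdkn1a, the CIP protein p21, had log2 folds of 1.87 ± 0.32 and 1.55 ± 0.47 (SE). The summed D-type cyclins over the summed INK4 genes came to 3.07 ± 1.10 in Olig1-Gnas (SD, n = 8), 3.995 ± 1.67 in hGFAP-Gnas (SD, n = 8) and 1.13 ± 0.214 in Ctrl (SD, n = 3). This ratio was 1.81 to 4.54 in Olig1-Gnas and 0.936 to 1.36 in Ctrl, without overlap, while hGFAP-Gnas 1, at 1.02, lay within the Ctrl range. The INK4 sum takes the whole Cdkn2a value, ARF included. Cdkn2a ran from 12.8 FPKM through a median of 22.2 to 142 FPKM in Olig1-Gnas. In hGFAP-Gnas it ran from 0.408 FPKM through 5.87 to 17.2 FPKM.

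Downstream, counts of called genes read against 36.2% called higher over all genes tested in Olig1-Gnas and 26.1% in hGFAP-Gnas. The pocket proteins and E2F factors counted 11 of 13 higher in Olig1-Gnas and 8 of 13 in hGFAP-Gnas, with median log2 folds of 1.48 and 1.41. E2f1, an activator of S-phase genes, rose by 4.83 ± 0.15 in Olig1-Gnas and 3.96 ± 0.72 in hGFAP-Gnas (SE) on the log2 scale, and E2f8 and E2f2 rose by 3.87 and 3.53 in Olig1-Gnas and by 3.06 and 2.80 in hGFAP-Gnas. E2f8 is a repressor of the family. Of the genes of cyclin E, cyclin A and S-phase entry, 12 of 12 rose in Olig1-Gnas and 10 of 12 in hGFAP-Gnas, with medians of 3.40 and 2.61. Ccna2, the S-phase cyclin A, rose by 5.98 ± 0.16 and 4.96 ± 0.75 (SE), and Rrm2 and Tk1, enzymes of nucleotide supply, rose by 5.48 and 5.23 in Olig1-Gnas and by 4.66 and 4.23 in hGFAP-Gnas. Ccne1 and Ccne2, the E-type cyclins that act after Cdk4 and Cdk6, rose by 0.85 and 1.09 in Olig1-Gnas, and their log2 folds of 0.35 and 0.65 in hGFAP-Gnas were not called.

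Genes that activate, fold or degrade the complexes had median folds close to 0: 0.10 and -0.05 for activation and folding, and 0.11 and 0.08 for turnover, in Olig1-Gnas and hGFAP-Gnas. Of the 6 genes of the CDK-activating kinase and chaperones, 1 rose and 1 fell in Olig1-Gnas and 1 rose in hGFAP-Gnas. Hsp90ab1, a chaperone of Cdk4, had log2 folds of 1.34 in Olig1-Gnas and 0.98 in hGFAP-Gnas, both called, and Ccnh, the cyclin of the activating kinase, fell by 0.47 in Olig1-Gnas. Of 10 genes of cyclin D turnover, 4 rose and 1 fell in Olig1-Gnas and 2 rose in hGFAP-Gnas, where 36.2% and 26.1% of all genes tested were called higher, so the count of this list is near that of genes in general. Fbxo31, an F-box protein that directs cyclin D1 to destruction, averaged 13.3 FPKM in Olig1-Gnas and 27.2 FPKM in Ctrl and fell by 1.01 on the log2 scale. Fbxw8 and Cul1, parts of ubiquitin ligases, rose by 0.78 and 0.69 in Olig1-Gnas and by 0.61 and 0.40 in hGFAP-Gnas.

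Other cyclins and cyclin-dependent kinases were set beside the 5 genes. Of 17 such relatives, 5 rose and 3 fell in Olig1-Gnas and 3 rose and 2 fell in hGFAP-Gnas, with median log2 folds of 0.26 and 0.09. Over all genes tested, 36.2% were called higher and 23.6% lower in Olig1-Gnas, and 26.1% and 12.8% in hGFAP-Gnas, so these counts do not set the relatives apart from other genes. Cdk16 and Cdk18, kinases of the PCTAIRE family, fell by 1.31 and 1.87 in Olig1-Gnas, Cdk16 also fell by 0.92 in hGFAP-Gnas, and Cdk8, a kinase of the Mediator complex, rose by 1.13 and 0.78. Under each scaling tried, Ccnd1, Ccnd2, Cdk4 and Cdk6 stayed higher in each knockout than in Ctrl: with quantile normalization their log2 folds were 4.25, 6.11, 3.61 and 4.65 in Olig1-Gnas and 3.20, 5.33, 2.83 and 3.43 in hGFAP-Gnas. Of all called genes, 60.5% were higher in Olig1-Gnas and 67.1% in hGFAP-Gnas, and 50.6% and 49.0% after quantile normalization. No listed gene of the 7 pathway lists was called between the knockouts.

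**Figure D5:**
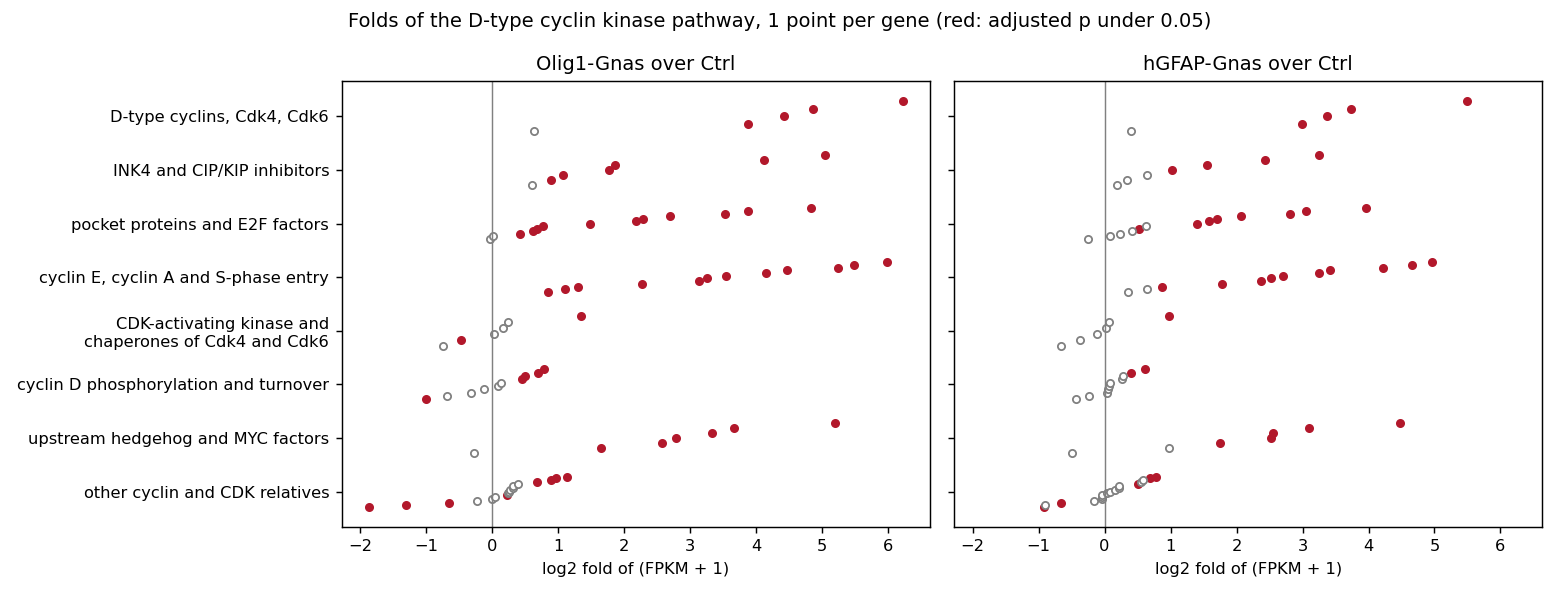
Log2 fold of FPKM + 1 for every tested gene of the D-type cyclin kinase pathway, by list, in Olig1-Gnas over Ctrl and hGFAP-Gnas over Ctrl; red points have an adjusted p under 0.05 and open points do not. Of the 7 pathway lists the S-phase genes have the highest median folds, 3.40 and 2.61, and the turnover genes lie around 0, with medians of 0.11 and 0.08.

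The genomic neighbours of the 5 genes were mixed. Within 500 kb of Ccnd1, 1 of 8 tested neighbours rose and 1 fell in each knockout. Around Ccnd2, 4 of 10 rose and 2 fell in Olig1-Gnas and 3 of 9 rose and 2 fell in hGFAP-Gnas. Around Ccnd3, 5 of 12 rose and 3 fell in Olig1-Gnas and 2 of 12 rose and 1 fell in hGFAP-Gnas. Around Cdk6, 3 of 9 rose in Olig1-Gnas and 0 of 9 were called in hGFAP-Gnas by limma, with 1 of 9 at an unadjusted p under 0.05. These counts read against 36.2% called higher and 23.6% called lower over all genes in Olig1-Gnas, and 26.1% and 12.8% in hGFAP-Gnas.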

How the data were processed

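RNA of 19 mouse cerebella was read by RNA sequencing. Trizol extraction, RNeasy columns and TruSeq libraries are given per the labels' protocols. TopHat, Cufflinks and the mm9 build are named in the submitters' processing notes, without roles or versions. The authors deposited FPKM per gene in 1 table for each knockout, and these deposited FPKM values, not counts, were used. Read totals, strand handling and annotation are not given in the sources used here. Depth is therefore known only relative to Ctrl 2, and no counting error could be set. Ctrl 1 differed between the tables in 5106 genes and Ctrl 2 and 3 in 0. Levels of Ctrl are from the table of Olig1-Gnas unless the comparison is with hGFAP-Gnas.

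The log2(FPKM + 1) values of genes reaching 1 FPKM in 3 or more compared libraries entered limma 3.58.1 (R 4.3.3; trend and robust moderation). Benjamini-Hochberg adjustment ran over all genes tested, and calls were made below 0.05. Exact permutation tests used SciPy 1.17.1. On simulated data with 200 changed genes (5 runs), 96.8%, 96.1% and 98.4% of 16-fold changes and 37.2%, 26.2% and 52.0% of 2-fold changes were recovered for Olig1-Gnas against Ctrl, hGFAP-Gnas against Ctrl and the knockouts. Mean false calls per run were 8.4, 13 and 10.2 at 16-fold and 2.4, 4.8 and 6.8 at 2-fold. The simulation gave both groups the same spread and changed far fewer genes than were called against Ctrl, so these rates may not hold here. The 5 genes and all lists were chosen with earlier results of these data known. Named pathway genes are the called members of a list with the 3 largest absolute folds in each knockout; Gli3, Ccne1 and Ccne2 were added after their values were seen. Promoters are from RefSeq (GRCm38.p6), which held 3 of the 5 genes. Each mouse is 1 library, so p-values measure the spread between mice. Alternatives covered the offset, the filter, scaling, moderation, depth, Y-linked signal, listed zeros, the replicate number as a block and single libraries.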

Additional observations from a re-analysis of the deposited data

Results flagged for a closer look

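Among 52 groups of 8 libraries, formed by 26 genes (the cyclins, the kinases and the named pathway genes) in each knockout, 4 held a library far from the others, and chance alone marks about 1 group in 20. None of the 5 cyclin and kinase genes was among them. In Olig1-Gnas 6, Cdkn2c stood at 79.2 FPKM, against 36.7 to 55.2 FPKM in the other Olig1-Gnas libraries, and Mycn stood at 50.3 FPKM, against 97.9 to 140.5 FPKM. The same library had the lowest Ccnd1, Ccnd3 and Cdk4 of its group, at 187, 20.3 and 367 FPKM. In Olig1-Gnas 3, Tk1 stood at 80.4 FPKM, against 39.9 to 52.9 FPKM in the others, and that library had the highest Ccnd1, Ccnd2, Cdk4 and Cdk6 of its group. In hGFAP-Gnas 1, Fbxo31 stood at 48.8 FPKM, against 11.7 to 28.5 FPKM in the others, and that library had the lowest level of all 5 cyclin and kinase genes in its group.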

How the results depend on the processing

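The 4 calls in Olig1-Gnas against Ctrl, for Ccnd1, Ccnd2, Cdk4 and Cdk6, held under every alternative with more than 1 Ctrl library. In these, 4 to 5 of the 5 genes were called. The shallower libraries hold Ctrl 3 alone from Ctrl, so a fit of them measured no spread between Ctrl mice. In hGFAP-Gnas the count of 4 fell to 0 in the deeper libraries (1 at an unadjusted p under 0.05) and was 1 to 5 when single libraries were left out. No gene of the 5 was called by limma between the knockouts under any alternative. The difference in Ccnd3 between the knockouts turned to -0.19 (adjusted p = 0.858) in the deeper libraries without hGFAP-Gnas 1. Ccnd3 was also called with 1 variance per group (adjusted p = 0.00825 in Olig1-Gnas and 0.0182 in hGFAP-Gnas) and, in Olig1-Gnas, in a fit of all 19 libraries (0.0305). With 1 variance per group, calls over all genes were 9913 of 14183 in Olig1-Gnas and 8503 of 14305 in hGFAP-Gnas. The main fits called 8485 and 5570. The fit of all 19 libraries called 8573 of 14591 in Olig1-Gnas. The causes were not tested.

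Over all genes, 8485 were called in Olig1-Gnas against Ctrl, 5141 in the shallower libraries and 6971 to 9546 with single libraries left out. In hGFAP-Gnas against Ctrl 5570 were called, 8503 with 1 variance per group, 6 in the deeper libraries, 2277 in the shallower ones and 818 to 8164 with single libraries left out, most without hGFAP-Gnas 1 and fewest without Ctrl 2. Between the knockouts 59 were called, and 35 with a filter of 5 FPKM, 178 in the fit of all libraries, 166 with depth as a term, 3 with Y-linked signal as a term, 3 in the deeper libraries, also without hGFAP-Gnas 1, and 11 to 104 with single libraries left out.

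Deviations of same-numbered libraries correlated at -0.18 to 0.05, -0.10 to 0.12 and -0.17 to 0.25 in the 3 comparisons. Over 0.1 were 0 of 3, 1 of 3 and 3 of 8 pairs. Differently numbered libraries were not compared, so whether replicate numbers pair the mice was not decided. With the replicate number as a block, only numbers shared by both groups were kept. Each comparison with Ctrl then held replicates 1 to 3 of each group, 3 libraries against 3, and left out the other knockout libraries. In these smaller sets 8375 genes and all 5 members were called in Olig1-Gnas. In hGFAP-Gnas, with hGFAP-Gnas 1 among the 3, 0 genes and 0 members were called (2647 genes and 3 members at an unadjusted p under 0.05). Between the knockouts, where all 8 numbers were shared, 25 genes and 0 members were called. Read totals are unknown, so how far Cdk6 and Ccnd2 in Ctrl lie above 0 could not be bounded.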
